A study of Mus musculus with 282 samples.

Results

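The oscillatory TNF cells were 56 single granulocyte-monocyte progenitors (GMPs) that the authors' deposited cell tables list with TNF as the stimulus and "oscillatory" as the response class. They were 56 of 178 TNF cells, 238 listed cells and 282 samples. GMPs are bone marrow progenitors of granulocytes and monocytes. TNF is an inflammatory cytokine that sends the transcription factor NfkB, of which p65 is a subunit, into the nucleus. In some cells p65 then moves in and out of the nucleus repeatedly, because NfkB induces its own inhibitors, and such cells are called oscillatory. Since the class rests on how a cell responded and not on its transcriptome, its members can differ in maturation, cell cycle and gene expression. How far they did is described here.

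All cells came from bone marrow of mice aged 12 to 19 weeks, of both sexes, homozygous for GFP-p65 and heterozygous for H2BmCherry, a red nuclear label. They were kept for 8 h in culture under a confocal microscope, picked singly with a micromanipulator and profiled by Smart-Seq2, which amplifies polyadenylated RNA of 1 cell. One experiment used 1 plate and held 20 oscillatory cells, which the authors' table places at 9 positions with 1 to 4 cells each. The other used 2 plates and held 36, with 22 on Plate1 and 14 on Plate2. The TNF dose and the animal of each cell were not known. Cells are not replicates, so each experiment was described on its own, correlations over cells are given with no p-value, and no test was run. The files name genes by Ensembl identifier without symbols, so 7 genes are given by identifier and what they do is not stated. Published markers of GMPs and of other blood cell types were not analysed here.

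The cells had 325684 to 2873386 reads in genes (median 1537056) and 5117 to 10568 genes with at least 1 read. All 5 cells with fewer than 8000 detected genes were on Plate2 of the 2-plate experiment, with 5117 to 7813 genes. Spike-in RNA, a reference that no cell makes, took 4.11% to 12.4% of their reads, against at most 2.64% in the other cells of that experiment. The lowest of the other 51 cells had 9072 detected genes. Values without these 5 cells stand beside the main results of the 2-plate experiment. Fewer molecules captured and less RNA in the cell cannot be told apart.

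Variation between cells was first ranked over 7873 genes with a mean of at least 10 CPM (reads scaled to a fixed total per cell) in both experiments. For each gene, the variance over cells of log2(CPM + 1) was set against the running median of genes of similar level. These were the 100 on either side by mean log2(CPM + 1), and the difference is called the excess variance. A gene was called highly variable when its excess was in the top 10% of each experiment. Of 788 genes past that limit in each experiment, 337 were past it in both, which is 4.28% of the ranked genes and 42.8% of each list. Across the ranked genes the excess of the 1-plate and the 2-plate cells had a Spearman correlation of 0.39. The smallest excess among called genes was 1.84 over the 1-plate cells and 1.63 over the 2-plate cells, and the nearest genes outside lay within 0.01 of these values.

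**Figure D1:**
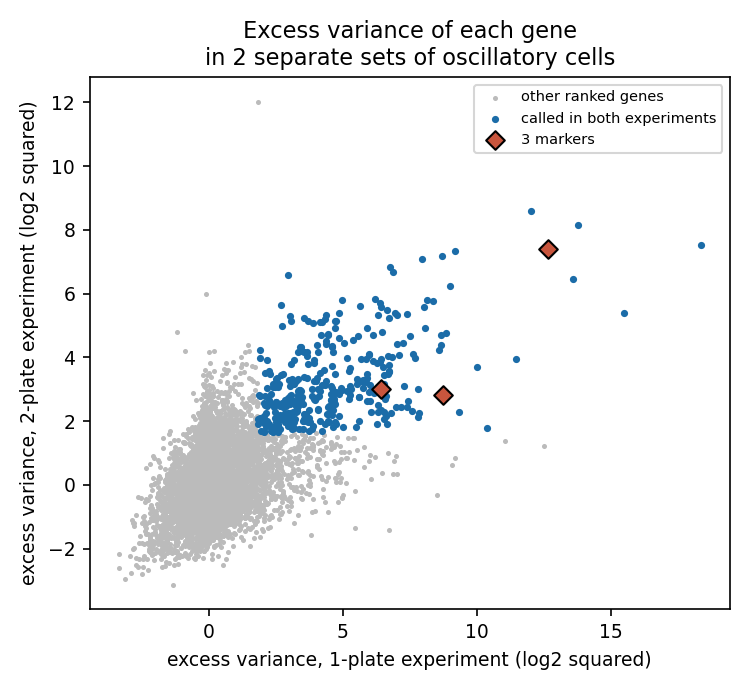
Excess variance over oscillatory TNF cells in the 1-plate experiment (horizontal axis, 20 cells) and the 2-plate experiment (vertical axis, 36 cells), in squared log2 units, with 1 point per ranked gene. The 337 genes called in both (blue) and the 3 markers (diamonds) lie in the upper right, and 1 gene near the top, which is high mainly in 2 cells, was called in the 2-plate experiment alone.

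Most called genes were detected in most cells, and few were carried by 1 cell. The median called gene was at 10 CPM or more in 80% of 1-plate and 69.4% of 2-plate cells, against 95% and 88.9% for the median ranked gene. One cell held at least 50% of the summed CPM for 13 of the 337 genes over the 1-plate cells and for 2 over the 2-plate cells. The median SD of log2(CPM + 1) was 2.48 and 2.53 for called genes, against 1.01 and 1.73 for ranked genes. Spike-ins, whose spread does not come from cells, mostly varied less than genes of like level. In the 1-plate experiment 11 of them reached the minimum level, and 9 had a variance below the running median of genes. Their median SD was 0.65 against 1.27 for genes, and 0 had the excess of a called gene. In the 2-plate experiment 31 reached that level, and 26 had a variance below the running median. Their median SD was 0.57 against 1.41, and 1 had the excess of a called gene.

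**Figure D2:**
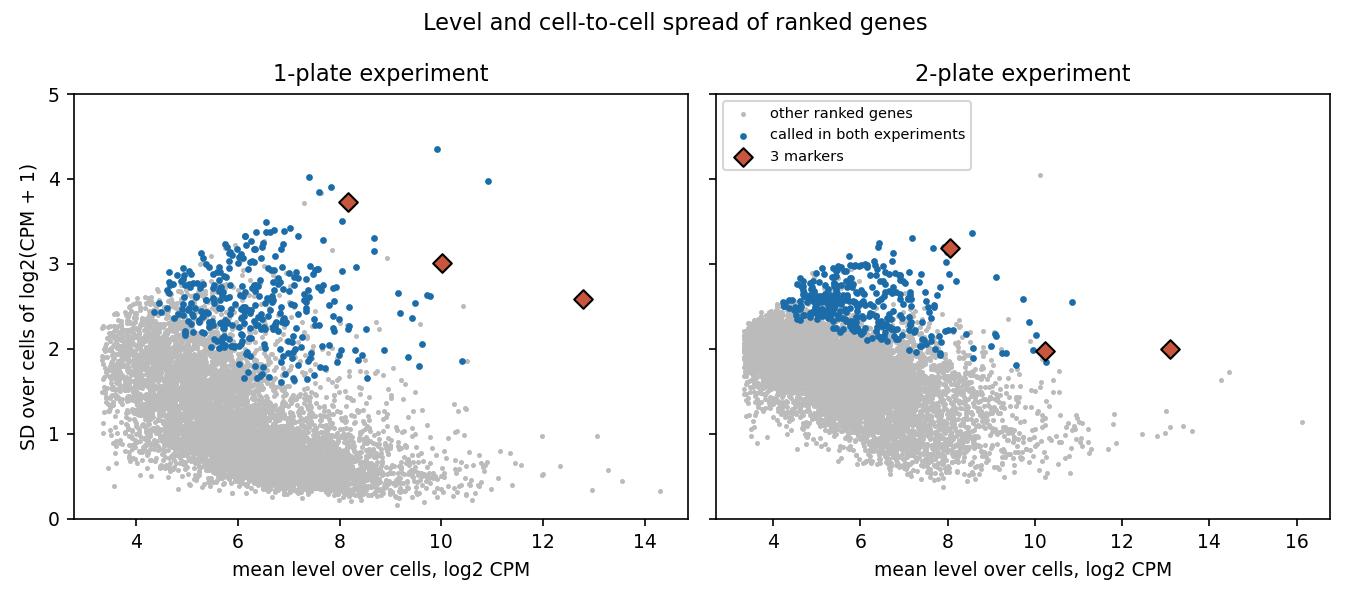
Cell-to-cell SD of log2(CPM + 1) (vertical axis) against the log2 of the mean CPM (horizontal axis) for the 7873 ranked genes in each experiment. The 3 markers (diamonds) lie above the bulk of genes of their level in both panels.

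The 3 genes given as markers of these cells, ENSMUSG00000035493, ENSMUSG00000069516 and ENSMUSG00000050335, were all among the 337. They had been chosen with results of these data known, so their rank is a description. Every one of the 56 cells had at least 1 of them at 10 CPM or more, and 38 had all 3 (13 of 20 and 25 of 36).

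ENSMUSG00000035493 was the most uneven of the 3. In the 1-plate experiment its level was 0 CPM in the lowest cell, 78.3 in the median and 1825 in the highest. It was at 0 in 4 of these cells and at 10 CPM or more in 13. The 2-plate cells had 0, 49.4 and 2265 CPM, with 3 at 0 and 25 at 10 CPM or more. The SD over cells was 3.73 and 3.18 on the log2(CPM + 1) scale, against 1.12 and 1.65 for genes of its level. It ranked 5 in excess variance in each experiment. Cells at 0 and cells above 1000 CPM were thus found in both experiments, within 1 response class.

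ENSMUSG00000069516 was detected in every cell and still spanned a wide range. Its lowest, median and highest levels were 60.2, 5174 and 22640 CPM over the 1-plate cells, and 197, 7199 and 32407 CPM over the 2-plate cells. In the 1-plate experiment 3 cells (wells B1, F2 and D1) stood apart with 60.2, 93 and 118 CPM, and the next had 850 CPM. On Plate2 of the 2-plate experiment the median was 2737 CPM, against 8579 CPM on Plate1, and all 5 cells with few detected genes were below that Plate2 median, at 197 to 2725 CPM. The SD was 2.59 and 2.0, against 0.52 and 0.99 for genes of its level.

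ENSMUSG00000050335 had 0, 608 and 4396 CPM in the lowest, median and highest 1-plate cell. It was at 10 CPM or more in 18 of 20, and the same wells B1, D1 and F2 were its lowest cells, with 0, 3.62 and 32.2 CPM. In the 2-plate experiment the values were 24.5, 947 and 4777 CPM, and 36 of 36 cells had 10 CPM or more. The SD of 3.01 and 1.98 compares with 0.56 and 1.04 for genes of its level.

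**Figure D3:**
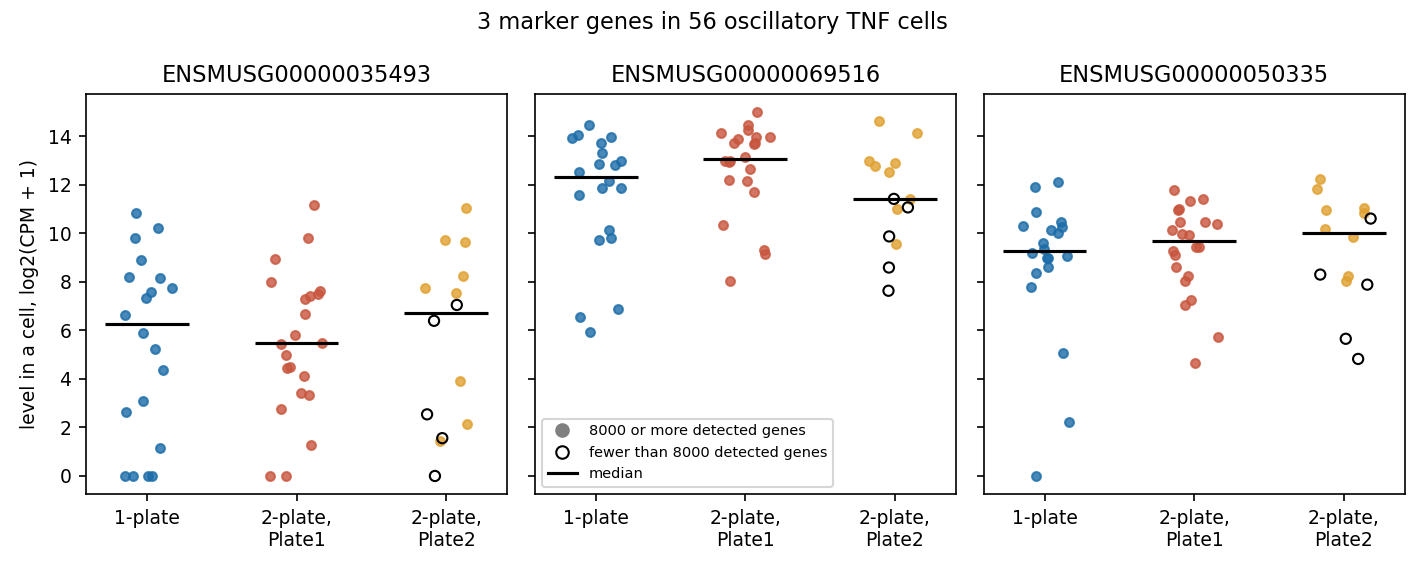
Level of each marker in each oscillatory TNF cell, in log2(CPM + 1), by experiment and plate, with a line at the median. Open circles are the 5 cells with fewer than 8000 detected genes. The first marker runs from 0 to above 10 in the 1-plate cells and on Plate1, and the second has cells far below its median on each plate.

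The 3 markers varied together from cell to cell. Over the 20 cells of the 1-plate experiment, ENSMUSG00000035493 had a Spearman correlation of 0.64 with ENSMUSG00000069516 and 0.62 with ENSMUSG00000050335, and the latter pair had 0.71. Over the 36 cells of the 2-plate experiment the same pairs had 0.75, 0.75 and 0.69. The points of an experiment share the culture, the library preparation and the scaling to total reads. Within Plate1 (22 cells) the values were 0.81, 0.75 and 0.72, and within Plate2 (14 cells) 0.81, 0.76 and 0.78. Among cells that the authors put in the G2M phase they were 0.86, 0.71 and 0.75 (14 cells of the 1-plate experiment) and 0.82, 0.78 and 0.66 (22 cells of the 2-plate experiment). Without the 5 cells of few detected genes, the pairs had 0.78, 0.80 and 0.65 over 31 cells of the 2-plate experiment, 0.92, 0.85 and 0.67 over 9 Plate2 cells, and 0.78, 0.76 and 0.61 over 20 G2M cells. All these values were above 0, on each plate and within 1 phase.

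Other genes followed the markers in both experiments. For each marker the 50 ranked genes with the highest Spearman correlation were taken in the 2-plate cells and read in the 1-plate cells, which this choice did not use. For ENSMUSG00000035493 their median was 0.69 in the 2-plate and 0.55 in the 1-plate cells. The medians were 0.79 and 0.67 for ENSMUSG00000069516, and 0.71 and 0.66 for ENSMUSG00000050335. For each marker, 50 of 50 genes had a correlation above 0 in the 1-plate cells, where the median over all other ranked genes was -0.06, -0.10 and -0.10. Of the 50 genes with the lowest correlation in the 2-plate cells, 39, 40 and 45 (78%, 80% and 90%) were below 0 in the 1-plate cells, in the same order of markers. Of all other ranked genes, 56.5%, 59.3% and 58.4% were below 0 there. With lists taken from the 31 cells with at least 8000 detected genes, again 50 of 50 of the highest were above 0 for each marker, and 45, 48 and 50 of the lowest were below 0. Some of these genes follow more than 1 marker, so the lists are not separate.

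The 337 highly variable genes fell mainly into 2 groups. Their genes tended to vary against each other, though not within Plate2 with all cells kept. They were clustered by their Spearman correlations over the 36 cells of the 2-plate experiment (average linkage, 6 clusters). One group of 153 genes held all 3 markers and is called the marker group. A second group held 156 genes, and the other 28 genes lay in small clusters of at most 17. Cutting the tree into 8, 10 or 12 clusters left groups of 153 and 147 genes as the largest. Clustered over the 31 cells with at least 8000 detected genes, the largest clusters had 148 genes, 143 of them in the marker group, and 134 genes, 122 of them in the second group. The split into groups used the 2-plate cells alone, and it was then read in the 1-plate cells. These are not a separate check of the genes, since their variance over the 1-plate cells was part of how the 337 were chosen. In the 1-plate cells the median correlation between gene pairs was 0.36 within the marker group, 0.31 within the second group and -0.19 between them. Over all pairs of the 337 genes it was 0.06. Between the groups, the median in the 2-plate experiment was -0.08 over 36 cells and 0.13 within Plate2. It was -0.24 over the 31 cells with at least 8000 detected genes. Of the 153 genes of the marker group, 147 had a correlation above 0 with the mean of the others in the 1-plate cells (median 0.60), and 143 were below 0 with the second group (median -0.52). Of the 156 genes of the second group, 146 were above 0 with their own group (median 0.50), and 127 were below 0 with the marker group (median -0.30).

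Among genes with a large excess in both experiments, ENSMUSG00000022126 led the marker group and ENSMUSG00000048327 the second group. Both were picked after their values were seen. On the scale of log2(CPM + 10), their smaller excess of the 2 experiments was 5.14 instead of 8.60 and 2.38 instead of 7.09. ENSMUSG00000022126 had 0, 16.2 and 1309 CPM in the lowest, median and highest 1-plate cell, with 8 of 20 cells at 0. In the 2-plate cells it had 0, 54 and 3957 CPM, with 4 of 36 at 0. It ranked 7 and 2 in excess variance. ENSMUSG00000048327 had 0, 169 and 766 CPM in the 1-plate and 0, 79.1 and 274 CPM in the 2-plate cells, and ranked 28 and 8. It was at 0 in 2 of 20 and 9 of 36 cells. The Plate1 median of ENSMUSG00000048327 was 116 CPM and the Plate2 median 3.95 CPM. All 5 cells with few detected genes had less than 5 CPM of it, and were thus among the low cells of Plate2. Apart from those 5, every cell at 0 in either experiment was one that the authors put in the G1 phase.

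Many genes of the second group belong to a cell cycle set. This set of 667 gene identifiers, which the scran package supplies for calling cell cycle phase, was chosen after the groups had been seen. Of the 156 genes, 80 (51.3%) were in the set, against 4 of 153 (2.61%) in the marker group and 7.02% of all ranked genes. Of the 553 genes of the set that were ranked, 85 (15.4%) were highly variable in both experiments, beside 4.28% of all ranked genes. The authors' cell tables give each cell a phase and a score for each phase, by a method not known here. If they rest on the same transcriptomes, their relation to expression is partly built in.

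By the authors' calls, 14 of 20 cells in the 1-plate experiment were in G2M (70%, exact 95% binomial interval 45.7% to 88.1%), 4 in G1 and 2 in S. In the 2-plate experiment 22 of 36 were in G2M (61.1%, 43.5% to 76.9%), 12 in G1 (33.3%, 18.6% to 51%) and 2 in S. Intervals cover counting error only. The call followed the highest score in all 16 G1 and all 36 G2M cells, whereas 3 of the 4 S cells had their highest score in G2M, so the S calls are the least certain.

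In each cell the level of a group was taken as the mean of log2(CPM + 1) over its genes. The second group separated G1 from G2M cells in the 1-plate experiment. Its level was 1.75 to 3.10 in the 4 G1 cells (median 2.94) and 5.63 to 6.91 in the 14 G2M cells (median 6.21), with no overlap. In the 2-plate experiment it was 1.42 to 5.68 in G1 (median 2.96) and 1.60 to 6.53 in G2M (median 6.05). With cells of at least 8000 detected genes, the 2-plate ranges were 2.14 to 5.68 in 10 G1 cells and 5.16 to 6.53 in 20 G2M cells. There 1 G1 cell, in well B9 of Plate1, lay among the G2M cells. Over all cells, the level of the second group had a Spearman correlation with the G1 score of -0.58 (1-plate) and -0.80 (2-plate), and with the G2M score of 0.30 and 0.65. Over the 31 2-plate cells with at least 8000 detected genes these were -0.79 and 0.60. If calls and scores rest on the same transcriptomes, the split and these correlations are partly built in.

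The marker group had no such split. Among G2M cells alone its level ran from 1.74 to 7.02 over 14 1-plate cells (median 5.35) and from 1.75 to 7.06 over 22 2-plate cells (median 4.88). G1 cells had 5.33 to 6.31 (median 6.07) in the 1-plate experiment. In the 2-plate experiment they had 2.58 to 7.19 (median 5.95), or 4.70 to 7.19 without the 2 G1 cells of few detected genes. The 4 S cells were at 1.42, 4.52, 2.89 and 3.69, the third being 1 of the 5 cells of few detected genes. Apart from those 2, no G1 cell was below 4.70, whereas G2M cells ran from the low to the high end. Correlations of the 3 markers with the G2M score lay between -0.07 and 0.08 in both experiments. With the G1 score, the level of the marker group had 0.20 over the 1-plate cells and 0.23 over the 2-plate cells. The latter was 0.42 over the 31 cells with at least 8000 detected genes, 0.51 within Plate1 and -0.16 within Plate2. Within G2M cells alone, the level of the marker group had a correlation with the G2M score of 0.56 (1-plate, 14 cells) and 0.53 (2-plate, 22 cells), or 0.43 over the 20 of the latter with at least 8000 detected genes. With the S score the markers had, over all phases, -0.13, -0.37 and -0.55 over the 1-plate cells and -0.21, -0.31 and -0.22 over the 2-plate cells.

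Cells high in the marker group were lower in the second group. The Spearman correlation of the 2 levels was -0.75 over the 1-plate cells (Pearson -0.49), and -0.74 over the 14 G2M cells among them. In the 2-plate experiment it was -0.24 over all 36 cells (Pearson -0.082), -0.20 over the 22 G2M cells, -0.72 within Plate1 and 0.43 within Plate2. The 5 cells with few detected genes were low in both groups. Without them it was -0.71 over 31 cells, -0.51 over 20 G2M cells, and -0.67 over the 9 cells of Plate2 that were left. The lowest cells of the marker group in the 1-plate experiment were those of wells D1, B1 and F2, at 1.42, 1.74 and 2.27, and these cells had 6.42, 6.91 and 6.82 in the second group. At the other end, well D5 of Plate2 had 7.19 and 3.18, and well H9 of Plate1 had 6.95 and 2.14, both in G1. Among G2M cells of the 1-plate experiment, well B6 had the highest level of the marker group and the lowest of the second group, 7.02 and 5.63. The marker group had a correlation with the number of detected genes of -0.45 over the 1-plate cells, 0.27 over the 2-plate cells and -0.06 over the latter without the 5. With the number of reads, the marker group had 0.09 over the 1-plate cells, -0.62 within Plate1 and 0.82 within Plate2. The second group had -0.04, 0.51 and 0.56 with reads, in the same order. The part of detected genes and of reads in these relations was not tested.

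**Figure D4:**
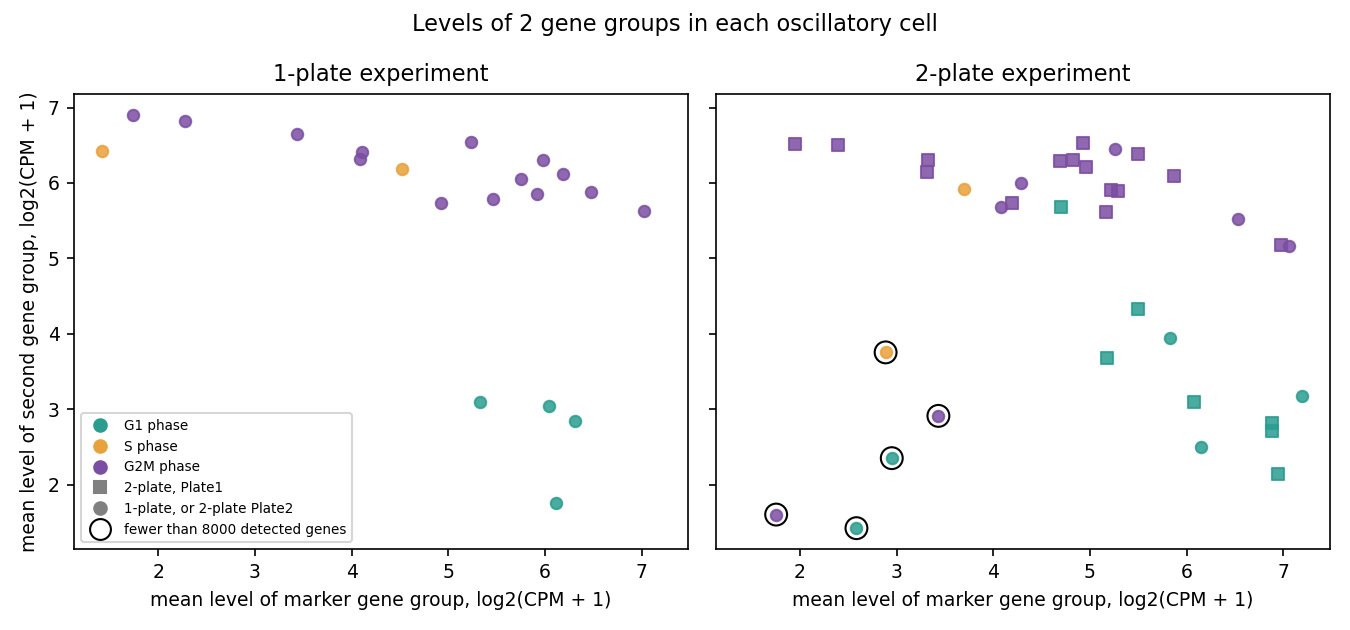
Level of the marker group (horizontal axis) and the second group (vertical axis), each the mean log2(CPM + 1) of its genes, with 1 point per oscillatory TNF cell, coloured by the authors' phase. G1 cells lie at the lower right and G2M cells along the top, and the 5 ringed cells with few detected genes lie at the lower left.

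A rare expression state was found in 2 cells. ENSMUSG00000027073 and ENSMUSG00000052234, known from earlier results of these data, were high in wells G2 and A3 of Plate1. These cells had 18835 and 19540 CPM of ENSMUSG00000027073, and 1263 and 1026 CPM of ENSMUSG00000052234. The next highest oscillatory cell had 716 CPM of the first gene and 12.7 CPM of the second. Both genes were thus far higher in these 2 cells than in the other 54, and the pair held 97.2% and 99.6% of the reads of the 2 genes in the 2-plate class.

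The pair of cells shared more than these 2 genes. There were 9 genes, these 2 among them, that reached 100 CPM in both cells with at least 80% of the summed CPM of the 36 cells in the pair. The 9 took 2.25% and 2.38% of the reads of wells G2 and A3. Most of that was ENSMUSG00000027073, with 18835 and 19540 CPM of a summed 22532 and 23768. The pair had been picked by the 2 genes. No other of the 630 pairs of 2-plate cells shared more than 1 gene by this rule, and no pair of 1-plate cells did among 190. Any other 2-plate cell had at most 1 of the 9 genes at 100 CPM. In the 1-plate experiment 4 of the 9 reached 100 CPM in some cell, with up to 3 in 1 cell. Only 4 of the 9 reached the mean level for ranking in both experiments, and 0 of these 4 were among the 337, beside 4.28% of all ranked genes. ENSMUSG00000027073, which ranked 1 in the 2-plate experiment, ranked 800 in the 1-plate experiment, just outside the top 10%.

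Both cells were called G2M, had 9716 and 10329 detected genes, and stood at the low end of the marker group, at 1.95 and 2.39, and the high end of the second group, at 6.52 and 6.51. Their marker levels were low: 0 and 20.7 CPM of ENSMUSG00000035493, 257 and 562 CPM of ENSMUSG00000069516, and 151 and 298 CPM of ENSMUSG00000050335. With a limit of 1000 CPM of ENSMUSG00000027073, they were 2 of 36 cells (5.56%, exact 95% interval 0.68% to 18.7%). By the same limit, 0 of the 20 cells of the 1-plate experiment allows a share of up to 16.8%. The highest of those 20 cells had 313 CPM of the gene. These bounds cover counting error only and take picked cells as independent draws, for genes already known to be high in the 2 cells. Over the series, 2 of 178 TNF cells and 0 of 60 blank cells had 1000 CPM or more of ENSMUSG00000027073.

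**Figure D5:**
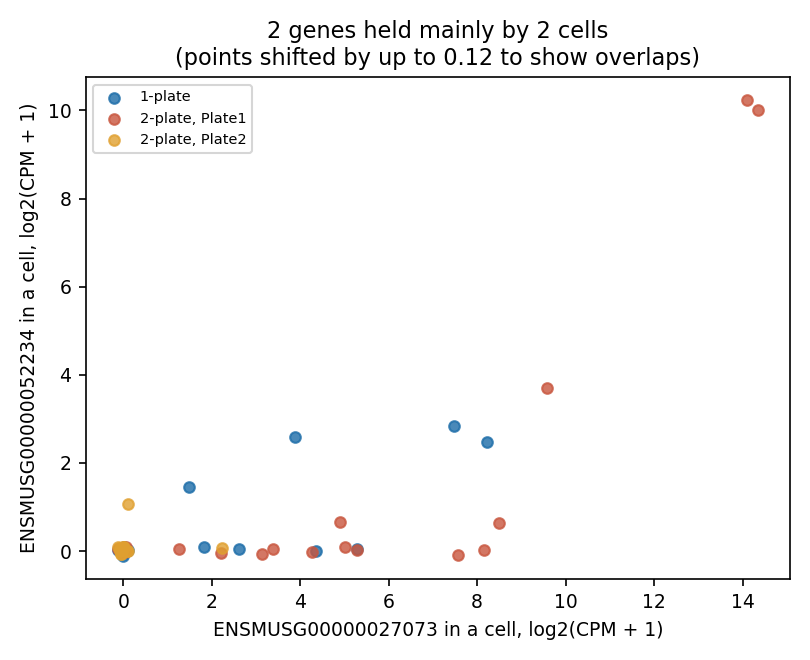
Level of ENSMUSG00000027073 (horizontal axis) and ENSMUSG00000052234 (vertical axis) in each of the 56 cells, in log2(CPM + 1), coloured by experiment and plate. The 2 cells at the upper right are wells G2 and A3 of Plate1, and a row of Plate1 and 1-plate cells has traces of the first gene.

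Traces of ENSMUSG00000027073 in other Plate1 cells differed in level by the place of the well. Cells with a read were not more common in the rows and columns of the pair. On Plate1, 7 other oscillatory cells shared a plate row or column with well G2 or A3, and they had 0 to 716 CPM (median 175). The 13 cells that shared neither had 0 to 38.7 CPM (median 3.41), and the 14 cells of Plate2 had at most 4.01 CPM. Of the 7 cells 4 had a read of the gene, and of the 13 cells 8 did, with 4 of each set at 10 CPM or more. In the 1-plate experiment the highest cells were those of the adjacent wells F1 and G1, at 313 and 173 CPM. The part of read or RNA transfer between wells in these traces was not tested, and no share of cells expressing the gene is read from them.

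Genes held by 1 cell were counted as those with at least 50% of the summed CPM of an experiment's oscillatory cells, and at least 100 CPM, in a single cell. There were 243, of which 88 came from the 1-plate and 155 from the 2-plate cells, spread over 15 of 20 and 18 of 36 cells. The median cell held 1. The 5 cells with few detected genes held 103 of the 155 (66.5%): wells C10, A12, F9, B9 and G5 of Plate2 held 38, 29, 20, 9 and 7. Without those cells the count over both experiments was 149. Among cells with at least 8000 detected genes the highest were well F1 of the 1-plate experiment with 24, well G2 of Plate1 with 18, and wells G1 and F4 of the 1-plate experiment with 14 and 12.

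The same measures in transient TNF cells, 25 and 51 in the 2 experiments, are given side by side and were not tested, and the classes differ in size. There 277 of 7907 ranked genes (3.50%) were highly variable in both experiments, with all 3 markers among them. The lists shared 136 genes, 49.1% of the transient and 40.4% of the oscillatory list. The median correlation between genes within the marker group was 0.20 and 0.26 in the transient cells of the 2 experiments, and 0.36 and 0.37 in the oscillatory cells, in which the genes were chosen. In non-responsive blank cells (13 and 34) it was 0.23 and 0.23. With all cells kept, the levels of the 2 groups had a correlation of -0.24 and 0.15 in transient cells. It was 0.19 and 0.09 in these blank cells, and -0.75 and -0.24 in the oscillatory cells.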

How the data were processed

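The 282 samples were single mouse cells sequenced by Smart-Seq2 with Nextera libraries, per the labels' protocols. The deposited tables hold read counts per Ensembl gene identifier. Tools named in the submitters' processing notes are featureCounts, Subread 1.5.0 and SAMtools. With build, annotation and strandedness not given in the sources used here, reads of overlapping genes and near-identical copies could not be told apart. Reads carry no molecular identifiers. The authors' deposited cell tables give stimulus, response class, phase and, as a fraction, the score of each phase, by methods not given in the sources used here. Count columns were matched to samples by well and plate, 357 columns of no sample were not used, and 0 pairs of cells had identical counts.

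The 92 spike-ins were left out of library sizes. CPM were computed from gene reads, and variances, Spearman correlations and clusters with Python 3.11.15, numpy 2.4.6, pandas 2.3.3 and scipy 1.17.1. The pseudocount was 1 CPM. Spike-ins were scaled to the spike-in total of a cell. Thinning drew 500000 reads per cell and left out 2 cells. No comparison was tested. scran 1.30.0 in R 4.3.3 gave an alternative ranking and the cell cycle set.

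Of 55450 identifiers, 0 matched a symbol in the reference table, so 20 gene lists set by symbol, and the exceptions by gene name in the rule for named genes, were not applied. The rule named the 3 given markers and the genes with the largest smaller excess of both experiments, here limited to 1 per group, and 2 genes high in the same cells were added. Members, markers and lists were chosen with earlier results of these data known. Alternatives covered the filter, pseudocount, threshold, measure of variation, size factors, depth, plates and cells left out.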

Additional observations from a re-analysis of the deposited data

How the results depend on the processing

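The 337 highly variable genes became 160 with a minimum mean of 50 CPM, 664 with no filter, 199 with the top 5% and 156 without Plate1 of the 2-plate experiment. The first 3 changes follow from the number of genes ranked or taken. For the last, which leaves 14 cells, 5 of them with few detected genes, the cause was not tested. Under the other 10 settings the count was 322 to 423, with all 3 markers called under each. Without the 2 cells high in ENSMUSG00000027073 it was 322, and without the 5 cells of few detected genes 423, of which 320 were among the 337. The squared coefficient of variation gave 412, of which 192 were among the 337. Genes held by 1 cell numbered 93 at 80% of the summed CPM, 32 at 500 CPM and 149 with cells of at least 8000 detected genes.

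Each correlation between 2 markers stayed above 0 under each alternative run. ENSMUSG00000069516 against ENSMUSG00000050335 was 0.86 by Pearson (1-plate), and in the 2-plate experiment 0.65 with cells of at least 8000 detected genes, 0.61 with those of them in G2M and 0.78 within Plate2. In G2M cells of the 1-plate experiment the 3 pairs had 0.86, 0.71 and 0.75. In the 9 Plate2 cells with at least 8000 detected genes, ENSMUSG00000035493 had 0.92 with ENSMUSG00000069516 and 0.85 with ENSMUSG00000050335. The correlation of the marker group with the second group turned to 0.43 within Plate2, and stayed below 0 under the other alternatives run. That of the marker group with the G2M score turned from 0.13 to -0.12 by Pearson (1-plate), and from -0.14 to 0.042 within Plate2, to 0.53 in G2M cells and to 0.43 in those with at least 8000 detected genes (2-plate). In G2M cells of the 1-plate experiment it was 0.56. That with detected genes turned from 0.27 to -0.056 with cells of at least 8000 detected genes, to -0.11 within Plate1 and to -0.11 in G2M cells with at least 8000 detected genes. The causes were not tested. The smaller excess of ENSMUSG00000048327 moved from 7.09 to 2.38 with a pseudocount of 10 CPM, 4.84 with a mean of at least 50 CPM, 5.43 without Plate1 and 7.80 with cells of at least 8000 detected genes. That of ENSMUSG00000022126 moved from 8.60 to 5.14 with a pseudocount of 10 CPM.

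No paired analysis was possible because no result comes from a test. Cells that share a position were not treated as linked. Lineage lists set by symbol could not be run. Depth limits detection: in the shallowest cell, with 325684 reads, a count of 0 allows up to 9.21 CPM (3 reads).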
